A study of Mus musculus with 23 samples.

Results

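The acrosome and sperm-egg fusion genes were taken from the deposited count table by symbol, and all 10 named genes were found there among 28861 genes. They were Izumo1, Spaca6, Tmem95, Dcst1 and Dcst2, which encode proteins needed for the sperm to join the egg, Acr and Acrbp of the acrosomal protease, and Zpbp, Zpbp2 and Spaca7 of the acrosomal matrix. All 10 passed the filter on low counts. They were measured by RNA sequencing in 23 testis libraries. The groups were NZO/HlLtJ on 44% fat (n = 4) and on 10% fat (n = 4), CAST/EiJ on 44% fat (n = 4) and on 10% fat (n = 3), and C57BL/6J on 44% fat (n = 4) and on 10% fat (n = 4). The mice of all 6 groups were males of wild-type genotype with no further treatment, both diets held added fiber, and the 44% fat diet was also rich in sugar while the 10% fat diet was the control. Feeding ran from 6 to 16 weeks of age. The labels give each library as a sample of its own and say nothing of litters or batches, so p-values measure the spread between these samples.

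The acrosome is a secretory cap that round spermatids build from Golgi vesicles over the nucleus. Its contents are released near the egg, and this exposes the membrane that carries the fusion proteins. IZUMO1 on the sperm binds its receptor on the egg. SPACA6, TMEM95, DCST1 and DCST2 act with it, and mouse sperm that lack any of them fail to fuse or to fertilize. Acrosin, encoded by Acr, is a serine protease stored as an inactive form that the Acrbp product holds in the acrosomal granule. ZPBP and ZPBP2 are related matrix proteins that shape the acrosome and bind the egg coat, and SPACA7 is released from the acrosome and helps to disperse the cumulus cells. These genes are read mostly in haploid germ cells, where the activator CREM binds cAMP response elements in many promoters.

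Promoter windows from the RefSeq table of build GRCm38.p6 (250 bases before to 50 bases after a gene's start) were found for 9 of the 10 genes, the exception being Acr. They were searched on both strands for the full cAMP response element TGACGTCA and for its shorter form TGACGT, which the full form contains. The full form was in 1 of the 9 windows and in 1.79% of all 32851 windows. The shorter form was in 3 of the 9 and in 7.51% of all windows. The matches are shown because these elements are known in genes read in spermatids. The sequence is that of the reference genome, which comes from C57BL/6J, and the alleles of the other strains were not analysed here. The capitals mark the element, which begins 96 bases before the start in Izumo1 (chr7:45621685-45621752, plus strand), 18 in Acrbp (chr6:125049879-125049944, plus strand) and 208 in Tmem95 (chr11:69878228-69878293, minus strand). These starts are those of RefSeq. The deposited span of Acrbp begins earlier, at 125049689, so the Acrbp stretch lies inside that span. The last line gives the 65 bases between the start of Dcst1 and that of Dcst2, which leave in opposite directions (chr3:89365254-89365318, plus strand, no capitals).
Izumo1: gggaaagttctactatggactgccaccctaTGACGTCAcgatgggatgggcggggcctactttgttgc
Acrbp: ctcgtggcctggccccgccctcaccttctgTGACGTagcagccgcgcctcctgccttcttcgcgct
Tmem95: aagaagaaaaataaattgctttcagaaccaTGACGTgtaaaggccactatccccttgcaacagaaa
Dcst1-Dcst2: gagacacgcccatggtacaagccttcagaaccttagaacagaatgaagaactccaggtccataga

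Estimated counts per library summed to 31.9 to 43.4 M for NZO/HlLtJ, 33.0 to 78.7 M for CAST/EiJ and 21.9 to 38.4 M for C57BL/6J (M, 1e+06). Levels are given as counts per 1e+06 counts after TMM scaling (CPM). The least counted member, Tmem95, had 57 to 578 estimated counts in a library, Acrbp had 7479 to 25726, and the other members had at least 869. The strains separated on the first and the second principal component, with 57.7% and 22.4% of the variance. The libraries of C57BL/6J on 10% fat replicate 4, NZO/HlLtJ on 10% fat replicate 4 and NZO/HlLtJ on 44% fat replicate 3 stood apart on the later components. Epididymis markers (3 of 8 in the table) summed to 99.1 CPM in CAST/EiJ on 44% fat replicate 2 and to 17.6 CPM in C57BL/6J on 10% fat replicate 2. They were at most 0.334 CPM in all NZO/HlLtJ and the other CAST/EiJ libraries and 4.33 to 5.70 CPM in the other C57BL/6J libraries. Leaving out the 2 libraries highest in these markers changed no member's call, and leaving out the 3 apart on the later components changed 1, that of Dcst1 between NZO/HlLtJ and CAST/EiJ.

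Set per length (CPM per kb of the transcript with the longest coding sequence), 4 acrosomal content genes, Acrbp, Zpbp2, Acr and Spaca7, were the highest and Tmem95 was the lowest in the mean of each strain. Over the 23 libraries Acrbp averaged 167 ± 12.5 CPM per kb, Zpbp2 145 ± 26.3, Acr 96.2 ± 6.19 and Spaca7 67.5 ± 12.0 (SD). Zpbp followed at 40.7 ± 4.36, Izumo1 at 40.1 ± 6.82, Dcst1 at 33.5 ± 3.79, Spaca6 at 33.1 ± 2.46 and Dcst2 at 28.3 ± 4.74 CPM per kb. Tmem95 stood at 7.23 ± 3.62 CPM per kb. The libraries of neighbours in this order overlapped except between Spaca7 and Zpbp and between Dcst2 and Tmem95. Within these ends the order differed by strain. Zpbp2 was above Acrbp in NZO/HlLtJ (154 and 152 CPM per kb) and below it in CAST/EiJ (109 and 177) and C57BL/6J (169 and 173). Izumo1 was above Zpbp in CAST/EiJ (48.0 and 37.4 CPM per kb) and below it in NZO/HlLtJ (32.6 and 38.5) and C57BL/6J (40.6 and 45.8). Spaca6 was above Dcst1 in NZO/HlLtJ (32.6 and 30.2 CPM per kb), and in CAST/EiJ Dcst2 (33.5) was above Dcst1 (32.7) and Spaca6 (32.5). The order also depends on the length used, since over all annotated exons Zpbp2 came before Acrbp and Spaca6, with 7.07 kb of exons, came after Tmem95.

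**Figure D1:**
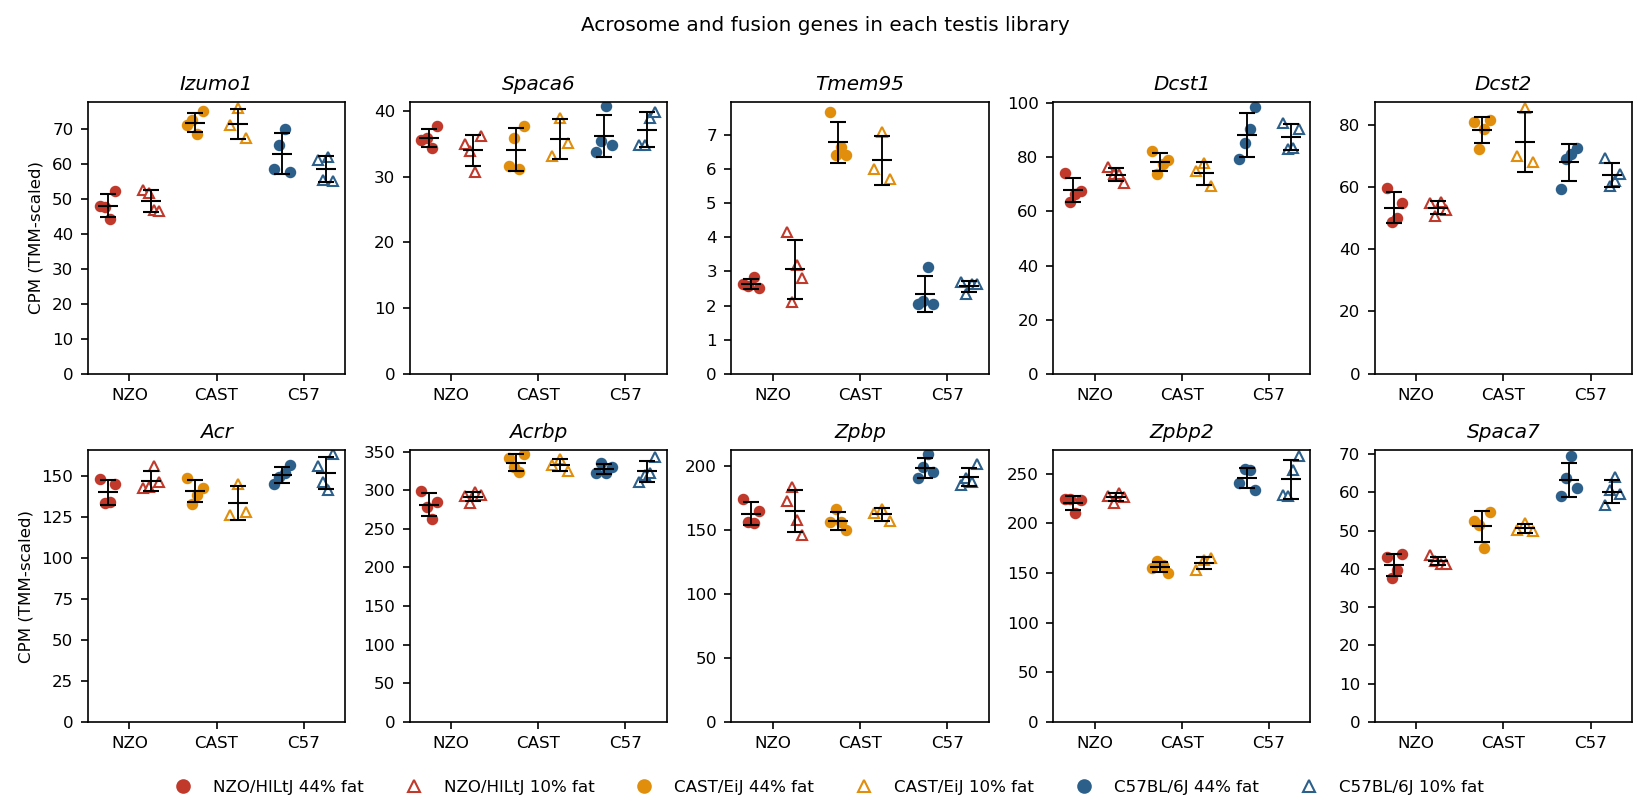
Level of each acrosome and fusion gene in TMM-scaled CPM (vertical axes from 0) in every library, with NZO/HlLtJ at left, CAST/EiJ in the middle and C57BL/6J at right, filled circles for 44% fat and open triangles for 10% fat; black bars are the mean ± SD of a group. All CAST/EiJ libraries lie above all others for Tmem95 (5.71 to 7.67 CPM) and below all others for Zpbp2 (150.4 to 165 CPM), while the diets of a strain overlap in every panel.

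Most of these genes differed between strains, mostly by modest amounts, and so did most of all genes tested. Set against C57BL/6J, NZO/HlLtJ testes had 7 of the 10 genes lower, none was higher and 3 did not pass the test (edgeR quasi-likelihood test, Benjamini-Hochberg adjusted p under 0.05 over 22873 genes). Of all genes tested 59.1% were called in that comparison, 28.7% lower and 30.4% higher. The share of members called lower was thus above the background while that called in either direction was near it. The median log2 fold change was -0.22 over the members and 0.01 over all genes. For CAST/EiJ against C57BL/6J 8 of 10 were called, 3 higher and 5 lower, where 66.8% of all genes were called, 32.7% higher and 34.1% lower. The median there was -0.11 over the members and -0.00 over all genes. For NZO/HlLtJ against CAST/EiJ 7 of 10 were called, 1 higher and 6 lower, where 72.1% of all genes were called, 39.6% higher and 32.5% lower. Here the median was -0.16 over the members and 0.06 over all genes. These comparisons share libraries, so they are not independent of each other. In testis tissue as a whole, fewer cells of a type and less RNA per cell cannot be told apart. The build, GRCm38, carries the C57BL/6J sequence. Whether sequence variants of NZO/HlLtJ and CAST/EiJ changed the number of reads counted was not tested, for these genes or the others named below.

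**Figure D2:**
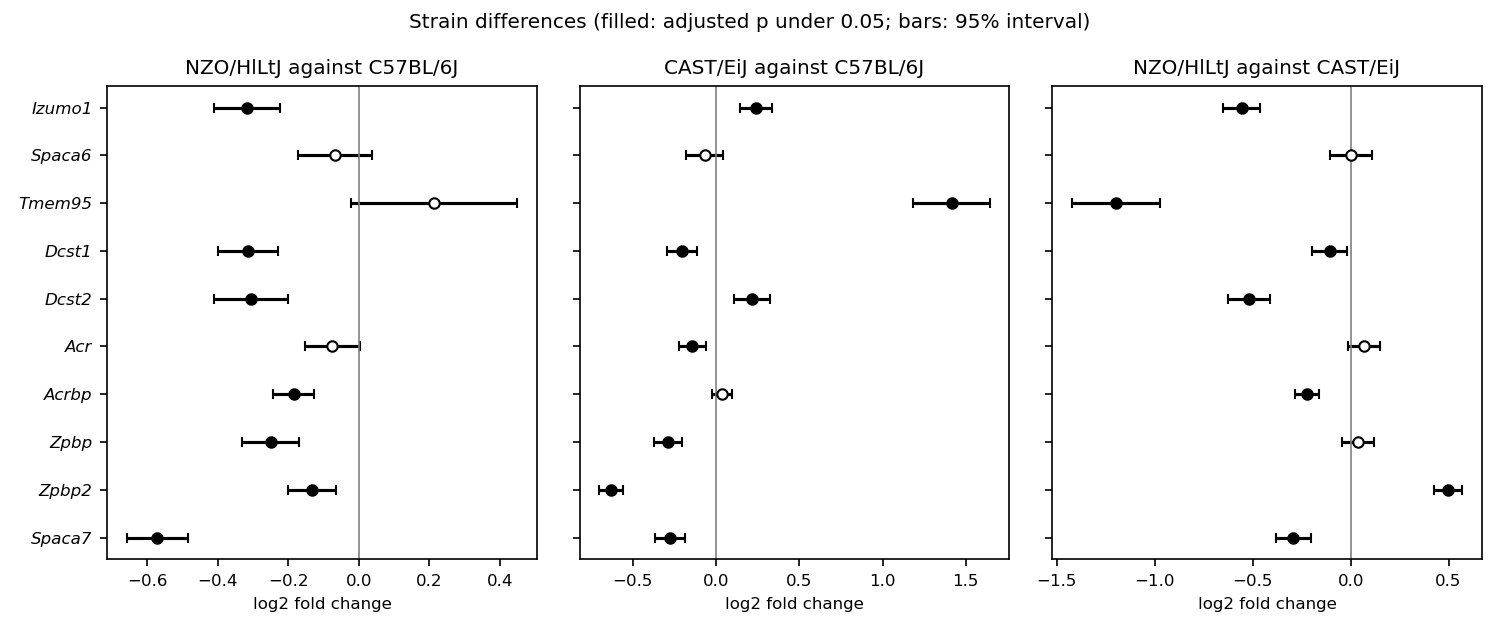
Log2 fold change of each gene between strains, averaged over diets, with 95% intervals from the edgeR fit; filled points passed the adjusted p threshold and each panel has its own scale. The NZO/HlLtJ values against C57BL/6J lie between -0.57 and 0.21, and those of CAST/EiJ against C57BL/6J between -0.63 (Zpbp2) and 1.41 (Tmem95).

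Tmem95, a small membrane protein of the sperm head, had the largest log2 fold change between strains of the 10 in the edgeR fit. The gene lies on the minus strand of chromosome 11 (GRCm38, chr11:69876684-69878018). It had 7.67, 6.41, 6.65 and 6.42 CPM in CAST/EiJ testes on 44% fat and 5.99, 7.08 and 5.71 CPM on 10% fat. In C57BL/6J it had 2.06, 2.13, 3.13 and 2.03 CPM on 44% fat and 2.69, 2.33, 2.63 and 2.62 CPM on 10% fat. Every CAST/EiJ library was above every C57BL/6J library, and the log2 fold change was 1.41 (SE 0.11, edgeR adjusted p = 5.37e-12), a 2.67-fold difference. NZO/HlLtJ testes had 2.62, 2.57, 2.84 and 2.51 CPM on 44% fat and 4.15, 2.10, 3.18 and 2.82 CPM on 10% fat. These overlapped C57BL/6J and lay below all CAST/EiJ libraries. The log2 fold change of NZO/HlLtJ was 0.21 (SE 0.11, edgeR adjusted p = 0.112) against C57BL/6J and -1.20 (SE 0.11, edgeR adjusted p = 8.97e-11) against CAST/EiJ. The first of these was called without NZO/HlLtJ 10% fat replicate 2 (0.28, edgeR adjusted p = 0.0242) or without C57BL/6J 44% fat replicate 3 (0.30, edgeR adjusted p = 0.0234). On the authors' compressed log2 scale the CAST/EiJ difference from C57BL/6J was 0.56, and it passed the test there as well, while that of Zpbp2 was larger in size on that scale, at -0.60. The genes on either side of Tmem95, at under 1 CPM, were lower in CAST/EiJ than in C57BL/6J: Kctd11 by a log2 fold change of -0.91 (SE 0.21) and Tnk1 by -4.98 (SE 0.31).

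Izumo1, the sperm protein that binds the egg receptor, was ordered CAST/EiJ, C57BL/6J, NZO/HlLtJ from high to low. The gene lies on the plus strand of chromosome 7 (chr7:45621811-45627242). It had 48.0, 47.7, 44.2 and 52.3 CPM in NZO/HlLtJ on 44% fat and 52.5, 51.7, 46.7 and 46.5 CPM on 10% fat. CAST/EiJ had 71.0, 72.6, 68.5 and 75.0 CPM on 44% fat and 71.0, 76.0 and 67.4 CPM on 10% fat. C57BL/6J had 58.4, 65.4, 70.0 and 57.6 CPM on 44% fat and 61.2, 55.5, 62.1 and 55.2 CPM on 10% fat. All NZO/HlLtJ libraries were below all libraries of the other strains, while CAST/EiJ and C57BL/6J overlapped. The log2 fold change was -0.32 (SE 0.05, edgeR adjusted p = 8.46e-07) in NZO/HlLtJ against C57BL/6J and 0.24 (SE 0.05, edgeR adjusted p = 5.59e-05) in CAST/EiJ against C57BL/6J. Between NZO/HlLtJ and CAST/EiJ it was -0.56 (SE 0.05, edgeR adjusted p = 1.68e-11). Rasip1, which shares 654 exon bases with Izumo1 in the GENCODE M21 annotation, had 4.21 CPM on average. The deposited span of Izumo1 ends at 45627242, before the start of Rasip1 in GENCODE M21 at 45627488.

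Spaca6, whose product associates with IZUMO1 on the sperm, passed the test in none of the strain comparisons (edgeR, also without adjustment, and in none of the alternatives run). The gene lies on the plus strand of chromosome 17 (chr17:17830719-17843009) in the deposited table. In GENCODE M21 it begins earlier, at 17827158, and only that longer span holds the microRNA genes Mir99b and Mirlet7e. The microRNA gene Mir125a lies in both spans and shares 47 exon bases with Spaca6 in GENCODE M21. Spaca6 had 30.8 to 37.7 CPM (median 35.3) in NZO/HlLtJ, 31.2 to 39.0 CPM (median 35.2) in CAST/EiJ and 33.8 to 40.8 CPM (median 35.1) in C57BL/6J. The strains overlapped throughout. The 95% interval of the log2 fold change was -0.17 to 0.04 in NZO/HlLtJ and -0.18 to 0.04 in CAST/EiJ against C57BL/6J, so larger differences lie outside these intervals. The Izumo1 to Spaca6 ratio of CPM, given without a test, was 1.40 ± 0.102 in NZO/HlLtJ (n = 8), 2.07 ± 0.130 in CAST/EiJ (n = 7) and 1.66 ± 0.140 in C57BL/6J (n = 8, SD).

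Dcst1 and Dcst2, a pair of membrane proteins with a domain related to the osteoclast fusion protein DC-STAMP, lie head to head on chromosome 3. Dcst1 is on the minus strand (chr3:89350219-89365253) and Dcst2 on the plus strand (chr3:89361975-89377549), so the deposited spans overlap by 3279 bases, with 0 exon bases shared in GENCODE M21, while the RefSeq starts shown above do not overlap. Dcst1 had 63.6 to 76.3 CPM (median 72.1) in NZO/HlLtJ, 69.6 to 82.3 CPM (median 77.7) in CAST/EiJ and 79.3 to 98.7 CPM (median 87.8) in C57BL/6J. NZO/HlLtJ lay below C57BL/6J in every library, and CAST/EiJ overlapped both. Dcst2 had 48.7 to 59.6 CPM (median 53.6) in NZO/HlLtJ, 68.0 to 85.3 CPM (median 78.5) in CAST/EiJ and 59.2 to 72.6 CPM (median 66.6) in C57BL/6J. All NZO/HlLtJ libraries lay below all CAST/EiJ libraries for Dcst2, and both overlapped C57BL/6J. Both genes were lower in NZO/HlLtJ than in C57BL/6J, with a log2 fold change of -0.31 (SE 0.04, edgeR adjusted p = 2.53e-07) for Dcst1 and -0.31 (SE 0.05, edgeR adjusted p = 9.24e-06) for Dcst2. The pair went opposite ways in CAST/EiJ against C57BL/6J, with -0.21 (SE 0.04, edgeR adjusted p = 0.000139) for Dcst1 and 0.21 (SE 0.05, edgeR adjusted p = 0.00084) for Dcst2. Between NZO/HlLtJ and CAST/EiJ the values were -0.11 (SE 0.04, edgeR adjusted p = 0.0295) for Dcst1 and -0.52 (SE 0.05, edgeR adjusted p = 8.85e-10) for Dcst2. The Dcst1 call in that last comparison did not hold on 10% fat alone, where it was -0.01 (edgeR adjusted p = 0.89), nor without any 1 of 5 libraries or without the libraries apart on the later components (adjusted p = 0.0572 to 0.0894). The libraries in question were CAST/EiJ 10% fat replicates 1 and 2, CAST/EiJ 44% fat replicate 1, NZO/HlLtJ 10% fat replicate 4 and NZO/HlLtJ 44% fat replicate 2.

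The Dcst2 to Dcst1 ratio of CPM was 0.754 ± 0.041 in NZO/HlLtJ (n = 8), 1.00 ± 0.053 in CAST/EiJ (n = 7) and 0.749 ± 0.032 in C57BL/6J (n = 8, SD). CAST/EiJ libraries ran from 0.931 to 1.10, above the ranges of 0.688 to 0.812 in NZO/HlLtJ and 0.708 to 0.809 in C57BL/6J. The sum of both genes was 124 ± 7.24 CPM in NZO/HlLtJ, 153 ± 10.2 CPM in CAST/EiJ and 154 ± 10.9 CPM in C57BL/6J. These ratios are descriptions without a test, chosen after the levels were seen. The sources used here do not say whether the counting used strand. Gm10702, a pseudogene that shares 1268 exon bases with Dcst1 on the opposite strand, had 1.73 CPM on average and a log2 fold change of -0.63 (SE 0.17) in CAST/EiJ against C57BL/6J.

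**Figure D3:**
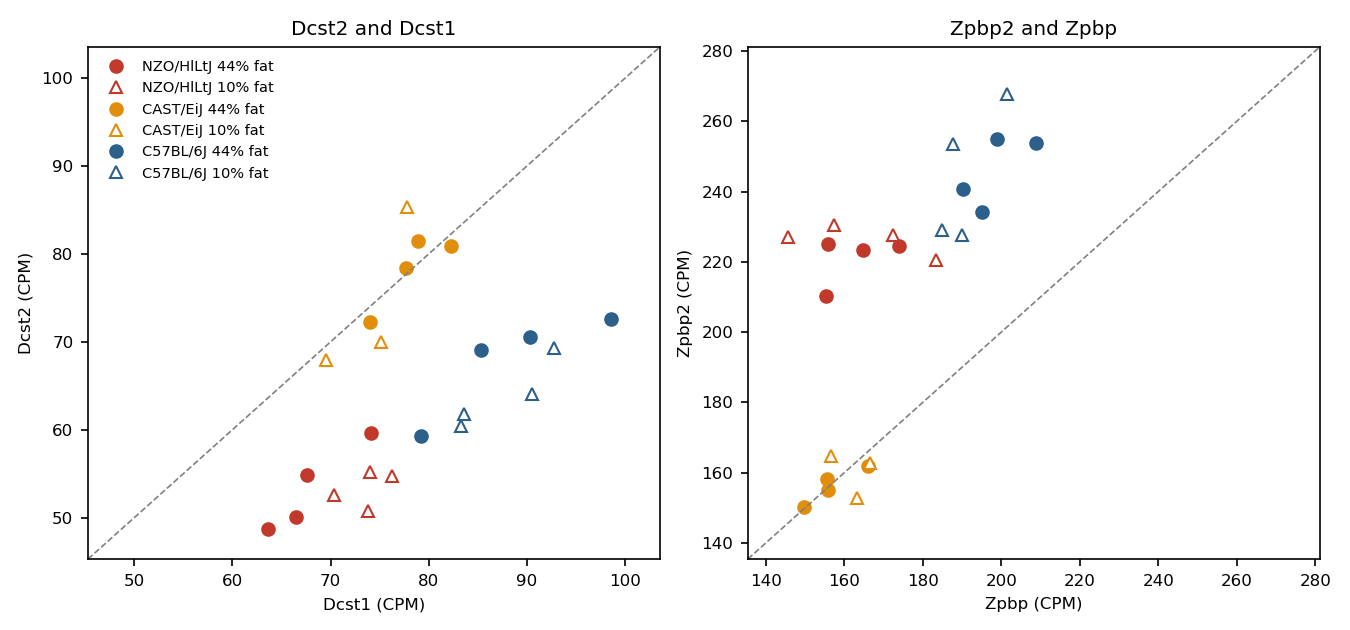
Dcst2 against Dcst1 and Zpbp2 against Zpbp in CPM, 1 point per library, with NZO/HlLtJ in red, CAST/EiJ in orange and C57BL/6J in blue, filled circles for 44% fat and open triangles for 10% fat; the dashed line marks equal CPM, not corrected for gene length, and both axes start above 0. CAST/EiJ libraries lie along the line in both panels (mean ratios 1.00 and 0.994), while the other strains lie below it for Dcst2 and above it for Zpbp2.

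The acrosin gene itself was close between strains. Acr (chr15:89568326-89574585, plus strand) had 133 to 156 CPM (median 144) in NZO/HlLtJ, 127 to 149 CPM (median 139) in CAST/EiJ and 141 to 164 CPM (median 151) in C57BL/6J. All strains overlapped. The log2 fold change of Acr was -0.14 (SE 0.04, edgeR adjusted p = 0.00213) in CAST/EiJ against C57BL/6J, -0.08 (SE 0.04, edgeR adjusted p = 0.0865) in NZO/HlLtJ against C57BL/6J and 0.07 (SE 0.04, edgeR adjusted p = 0.121) in NZO/HlLtJ against CAST/EiJ. The value in NZO/HlLtJ against C57BL/6J was -0.10 and called with the DESeq2 test (adjusted p = 0.0152), with the size factors of DESeq2 in edgeR (adjusted p = 0.0196) and with limma on the authors' log2 values (adjusted p = 0.0218). It was also called by edgeR without C57BL/6J 10% fat replicate 3 (adjusted p = 0.0394) or NZO/HlLtJ 10% fat replicate 3 (adjusted p = 0.0458), and the value against CAST/EiJ was called without CAST/EiJ 10% fat replicate 2 (0.10, adjusted p = 0.0261).

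Acrbp (chr6:125049689-125063267, plus strand), the proacrosin binding protein, was the member with the most counts and the least spread within groups. It had 262 to 299.5 CPM (median 289) in NZO/HlLtJ, 323 to 347 CPM (median 333) in CAST/EiJ and 311 to 344 CPM (median 323) in C57BL/6J. Every NZO/HlLtJ library was below every library of the other strains, which overlapped each other. On the log2 scale the difference was -0.19 (SE 0.03, edgeR adjusted p = 3.15e-06) in NZO/HlLtJ against C57BL/6J and -0.22 (SE 0.03, edgeR adjusted p = 1.82e-07) against CAST/EiJ. In CAST/EiJ against C57BL/6J it was 0.04 (SE 0.03, edgeR adjusted p = 0.296). The long noncoding gene ENSMUSG00000108037 on the same strand shares 975 exon bases with Acrbp, so reads could be split between them. It had 9.63 CPM on average and a log2 fold change of -0.50 (SE 0.06) in NZO/HlLtJ against C57BL/6J.

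Zpbp2, a matrix protein gene, was the member most reduced in CAST/EiJ. The gene lies on the plus strand of chromosome 11 (chr11:98551097-98558665). It had 224, 225, 210.2 and 223 CPM in NZO/HlLtJ on 44% fat and 228, 221, 230.5 and 227 CPM on 10% fat. CAST/EiJ had 155, 162, 158 and 150.4 CPM on 44% fat and 153, 163 and 165 CPM on 10% fat. C57BL/6J had 241, 255, 254 and 234 CPM on 44% fat and 229, 228, 253 and 268 CPM on 10% fat. All CAST/EiJ libraries were below all others, and NZO/HlLtJ overlapped C57BL/6J. The log2 fold change was -0.63 (SE 0.04, edgeR adjusted p = 1.68e-15) in CAST/EiJ against C57BL/6J and 0.50 (SE 0.04, edgeR adjusted p = 3.20e-13) in NZO/HlLtJ against CAST/EiJ. Against C57BL/6J, NZO/HlLtJ was at -0.13 (SE 0.03, edgeR adjusted p = 0.0012), and -0.11 without a call on 10% fat alone (edgeR adjusted p = 0.125). The neighbouring gene Ormdl3 had a log2 fold change of 0.29 (SE 0.06) in CAST/EiJ against C57BL/6J, opposite in sign to Zpbp2. Ikzf3, the neighbour on the other side, had the same sign as Zpbp2, at -0.58 (SE 0.39) without a call, with 0.218 CPM on average.

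Zpbp, its relative on the minus strand of chromosome 11 (chr11:11279626-11462408), was lower in both NZO/HlLtJ and CAST/EiJ than in C57BL/6J. It had 146 to 183 CPM (median 161) in NZO/HlLtJ, 149.8 to 167 CPM (median 157) in CAST/EiJ and 185 to 209 CPM (median 193) in C57BL/6J. All C57BL/6J libraries were above all others, and NZO/HlLtJ and CAST/EiJ overlapped. Its log2 fold change was -0.25 (SE 0.04, edgeR adjusted p = 3.31e-06) in NZO/HlLtJ and -0.29 (SE 0.04, edgeR adjusted p = 4.80e-07) in CAST/EiJ against C57BL/6J. Between NZO/HlLtJ and CAST/EiJ it was 0.04 (SE 0.04, edgeR adjusted p = 0.418), with a 95% interval of -0.05 to 0.12. The Zpbp2 to Zpbp ratio of CPM, given without a test, was 1.37 ± 0.112 in NZO/HlLtJ (n = 8), 0.994 ± 0.036 in CAST/EiJ (n = 7) and 1.26 ± 0.058 in C57BL/6J (n = 8, SD). Zpbp shares 223 exon bases with 4930415F15Rik on the opposite strand, which was also lower in NZO/HlLtJ (-0.52, SE 0.05) and in CAST/EiJ (-0.37, SE 0.05) than in C57BL/6J.

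Spaca7 (chr8:12573049-12600738, plus strand) separated all 3 strains without overlap. It had 43.0, 37.6, 39.8 and 43.8 CPM in NZO/HlLtJ on 44% fat and 43.6, 42.0, 41.1 and 41.4 CPM on 10% fat. CAST/EiJ had 52.5, 51.5, 45.5 and 54.8 CPM on 44% fat and 50.1, 52.0 and 49.8 CPM on 10% fat. C57BL/6J had 59.1, 63.7, 69.4 and 61.1 CPM on 44% fat and 56.8, 60.5, 64.0 and 59.4 CPM on 10% fat. NZO/HlLtJ was the lowest, CAST/EiJ lay between, and C57BL/6J was the highest in every library. Spaca7 had a log2 fold change of -0.57 (SE 0.04, edgeR adjusted p = 2.32e-12) in NZO/HlLtJ and -0.28 (SE 0.04, edgeR adjusted p = 2.29e-06) in CAST/EiJ against C57BL/6J. Between NZO/HlLtJ and CAST/EiJ it was -0.29 (SE 0.04, edgeR adjusted p = 9.17e-07).

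Counted over the 10 genes, the libraries of the strains did not overlap for 5 genes in NZO/HlLtJ against C57BL/6J, 4 in CAST/EiJ against C57BL/6J and 6 in NZO/HlLtJ against CAST/EiJ. Over all genes tested the libraries did not overlap for 26.3%, 39.1% and 43.9% in that order, so the count in CAST/EiJ against C57BL/6J was near the background. On each diet taken alone, the sign of the strain difference was the same on both diets for 10 of 10 genes in NZO/HlLtJ against C57BL/6J, 10 of 10 in CAST/EiJ against C57BL/6J and 9 of 10 in NZO/HlLtJ against CAST/EiJ. The exception was Spaca6, at 0.09 on 44% fat and -0.07 on 10% fat, neither of them called. Of 21484 genes tested on both diets 86.7%, 88.3% and 89% had the same sign on both, so the members' counts were near the background. Calls on both diets in the same direction numbered 6, 8 and 6 of 10, against 36.5%, 47.1% and 52.5% of those genes.

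No diet effect was detected in any of the 10 genes. With edgeR's quasi-likelihood test 0 of 10 members were called in NZO/HlLtJ, in CAST/EiJ, in C57BL/6J or averaged over strains, and 0 of 10 in the test of a diet effect that differs by strain. At an unadjusted p under 0.05 the counts were also 0 of 10, and DESeq2 and limma called 0 of 10 in each. The background was as low: 0.00437% of all genes were called for diet in NZO/HlLtJ, 0% in CAST/EiJ, 0.00874% in C57BL/6J, 0% averaged over strains and 0% for the difference between strains. At an unadjusted p under 0.05 there were 1555, 941, 670, 896 and 1121 genes in these comparisons among 22873. The libraries of the diets overlapped for all 10 genes in each strain. Over all genes they did not overlap for 3.58% in NZO/HlLtJ, 5.29% in CAST/EiJ and 2.09% in C57BL/6J.

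The size of the diet difference that these libraries allow differed by gene. Over the members, the log2 fold change of 44% against 10% fat ran from -0.22 to 0.08 in NZO/HlLtJ, from -0.07 to 0.12 in CAST/EiJ and from -0.14 to 0.10 in C57BL/6J. The widest interval was that of Tmem95, -0.54 to 0.11 in NZO/HlLtJ, -0.19 to 0.44 in CAST/EiJ and -0.48 to 0.21 in C57BL/6J. For Acrbp, the member with the least spread within groups, the 95% interval was -0.14 to 0.03 in NZO/HlLtJ, -0.08 to 0.10 in CAST/EiJ and -0.07 to 0.10 in C57BL/6J. Other well counted members had wider intervals. Examples are -0.24 to 0.01 for Dcst1 in NZO/HlLtJ, -0.23 to 0.09 for Spaca6 in CAST/EiJ and -0.06 to 0.23 for Dcst2 in C57BL/6J. The member with the least adjusted p was Dcst1 in NZO/HlLtJ. It had 74.1, 63.6, 66.5 and 67.6 CPM on 44% fat and 76.3, 73.8, 74.0 and 70.4 CPM on 10% fat. The diets overlapped, with a log2 fold change of -0.12 (SE 0.06, edgeR adjusted p = 0.75). Its diet effect in NZO/HlLtJ minus that in CAST/EiJ was -0.19 (SE 0.09, edgeR adjusted p = 0.665), the only member with an unadjusted p under 0.05 in a pairwise test of that kind.

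Izumo1 averaged 48.1 ± 3.34 CPM on 44% fat and 49.3 ± 3.16 CPM on 10% fat in NZO/HlLtJ (SD, n = 4 each). In CAST/EiJ it averaged 71.8 ± 2.73 CPM on 44% fat (n = 4) and 71.5 ± 4.35 CPM on 10% fat (n = 3). In C57BL/6J it averaged 62.9 ± 5.90 CPM on 44% fat and 58.5 ± 3.64 CPM on 10% fat (n = 4 each). Acr averaged 140.3 ± 7.52 CPM on 44% fat and 147 ± 6.16 CPM on 10% fat in NZO/HlLtJ, and 151 ± 4.75 CPM on 44% fat and 152 ± 9.98 CPM on 10% fat in C57BL/6J. Averaged over strains, the diet log2 fold change of the members lay between -0.08 (Tmem95) and 0.05 (Dcst2). The largest diet value of a member in each strain was that of Tmem95, and it moved with single libraries without a call. In NZO/HlLtJ it was -0.22 with all libraries and -0.35 without 10% fat replicate 2, while without 10% fat replicate 1 the largest was that of Dcst1, at -0.10. In CAST/EiJ it was 0.12 with all libraries and 0.22 without 10% fat replicate 2, while the largest was that of Spaca6 without 10% fat replicate 3 (-0.08) and that of Dcst2 without 44% fat replicate 1 (0.06). In C57BL/6J it was -0.14 with all libraries and -0.31 without 44% fat replicate 3. With each library left out, the largest value of a member in C57BL/6J ran from 0.096 to 0.31 in size.

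**Figure D4:**
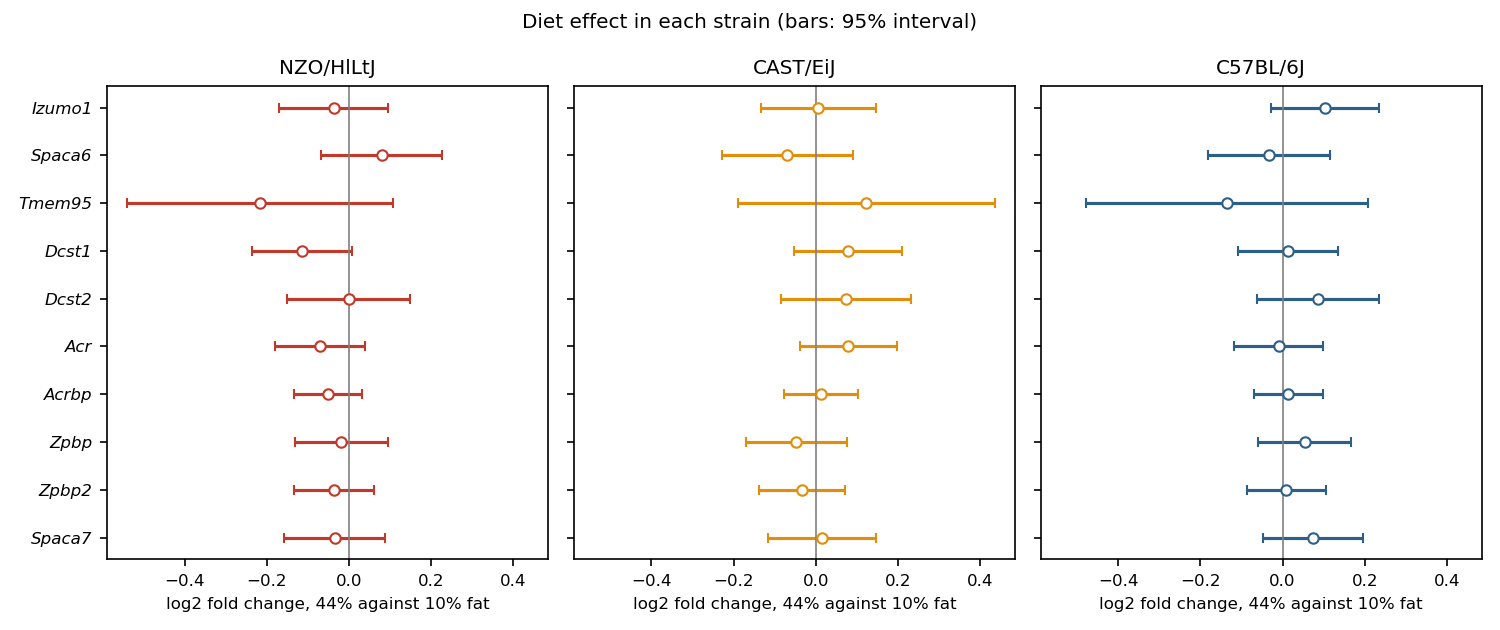
Log2 fold change of 44% against 10% fat for each gene in NZO/HlLtJ, CAST/EiJ and C57BL/6J, with 95% intervals from the edgeR fit; all panels share 1 scale and open points did not pass the adjusted p threshold. All intervals cross 0, and Tmem95 has the widest, from -0.54 to 0.11 in NZO/HlLtJ.

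Other genes of fertilization were read from lists of sperm and egg genes. Against C57BL/6J, NZO/HlLtJ had lower levels of 35 of 48 sperm genes on 4 lists, while 1 was higher and 12 did not pass the test, where 28.7% of all genes were lower. In CAST/EiJ against C57BL/6J 10 were lower, 20 were higher and 18 did not pass, where 34.1% of all genes were lower and 32.7% higher. Of the same 48 genes in NZO/HlLtJ against CAST/EiJ 36 were lower, 3 were higher and 9 did not pass, where 32.5% of all genes were lower and 39.6% higher. For diet 0 of 52 genes on the 5 lists were called in each strain by edgeR, DESeq2 or limma, with 3, 0 and 2 at an unadjusted p under 0.05 by edgeR in NZO/HlLtJ, CAST/EiJ and C57BL/6J. All p-values of list genes below are from edgeR, adjusted over all genes.

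Of 6 further fusion and IZUMO family genes, 4 were lower in NZO/HlLtJ than in C57BL/6J (median -0.21), beside 28.7% lower among all genes. In CAST/EiJ 2 were higher and 1 lower than in C57BL/6J (median 0.05), beside 32.7% higher and 34.1% lower among all genes. Tmem81, whose product joins IZUMO1 and SPACA6 in a complex, averaged 14.6 ± 1.56 CPM in NZO/HlLtJ (n = 8), 24.6 ± 2.12 CPM in CAST/EiJ (n = 7) and 21.96 ± 2.52 CPM in C57BL/6J (n = 8, SD). Its log2 fold change was -0.59 (SE 0.07, adjusted p = 1.57e-08) in NZO/HlLtJ and 0.15 (SE 0.07, adjusted p = 0.0481) in CAST/EiJ against C57BL/6J. The gene listed as 1700034O15Rik, now named Llcfc1, which sperm need for fusion, averaged 89.0 ± 7.16 CPM in NZO/HlLtJ, 115 ± 4.97 CPM in CAST/EiJ and 116 ± 4.81 CPM in C57BL/6J, and was lower in NZO/HlLtJ than in C57BL/6J, at -0.39 (SE 0.04, adjusted p = 5.38e-09). Izumo2, a relative of Izumo1, was lower in CAST/EiJ than in C57BL/6J at -0.26 (SE 0.04, adjusted p = 3.56e-06), and 4930451I11Rik was higher at 0.36 (SE 0.06, adjusted p = 3.19e-06).

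Of 20 acrosomal matrix and membrane genes, 17 were lower and 1 was higher in NZO/HlLtJ than in C57BL/6J (median -0.24). Among all genes 28.7% were lower and 30.4% higher. Zan, a large protein that binds the egg coat, averaged 85.7 ± 6.84 CPM in NZO/HlLtJ, 119 ± 6.28 CPM in CAST/EiJ and 117 ± 10.7 CPM in C57BL/6J, a log2 fold change of -0.44 (SE 0.05, adjusted p = 1.67e-08) in NZO/HlLtJ against C57BL/6J. Spam1, a sperm hyaluronidase, averaged 58.7 ± 3.26 CPM in NZO/HlLtJ, 85.7 ± 3.997 CPM in CAST/EiJ and 79.4 ± 6.05 CPM in C57BL/6J, with -0.43 (SE 0.04, adjusted p = 2.25e-09) in NZO/HlLtJ against C57BL/6J. The member of this list that was higher was Tmem190, at 0.18 (SE 0.04, adjusted p = 0.00115). CAST/EiJ had 8 of the list higher and 2 lower than C57BL/6J (median 0.03), beside 32.7% higher and 34.1% lower among all genes. Tmem190 was higher by 0.54 (SE 0.05, adjusted p = 2.05e-11) and the lysozyme relative Spaca5 by 0.48 (SE 0.07, adjusted p = 6.25e-07). The lower ones were the sperm serine protease gene Prss21 at -0.36 (SE 0.05, adjusted p = 8.29e-08) and the proprotein convertase gene Pcsk4 at -0.24 (SE 0.04, adjusted p = 9.93e-06). Against CAST/EiJ, NZO/HlLtJ had 17 lower and 1 higher (median -0.24), with Spaca5 at -0.74 (SE 0.07, adjusted p = 1.81e-10) and Pcsk4 at 0.13 (SE 0.04, adjusted p = 0.00588). In that comparison 32.5% of all genes were lower and 39.6% higher.

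Of 13 acrosome formation genes, 8 were lower and 0 higher in NZO/HlLtJ than in C57BL/6J (median -0.14), beside 28.7% lower and 30.4% higher among all genes. Atg7, an enzyme of autophagy, was lower, at -0.60 (SE 0.04, adjusted p = 5.42e-13), and Spata16, a Golgi protein of spermatids, averaged 228 ± 8.26 CPM in NZO/HlLtJ, 351 ± 12.5 CPM in CAST/EiJ and 299.9 ± 8.17 CPM in C57BL/6J, with -0.39 (SE 0.03, adjusted p = 1.20e-12) in NZO/HlLtJ against C57BL/6J. CAST/EiJ had 7 higher and 3 lower than C57BL/6J (median 0.09), beside 32.7% higher and 34.1% lower among all genes. Csnk2a2, a casein kinase subunit, was higher at 0.35 (SE 0.03, adjusted p = 1.76e-10), and the actin-related Actl9 was lower at -0.33 (SE 0.03, adjusted p = 1.54e-09). Capza3, an actin capping subunit, was higher at 0.30 (SE 0.03, adjusted p = 3.73e-10) and Atg7 lower at -0.41 (SE 0.04, adjusted p = 1.84e-09). Against CAST/EiJ, NZO/HlLtJ had 9 lower and 1 higher (median -0.23), the higher one being the vesicle tethering gene Vps54 at 0.34 (SE 0.06, adjusted p = 6.18e-06). In that comparison 32.5% of all genes were lower and 39.6% higher.

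Of 9 genes for the folding of sperm proteins and passage through the oviduct, 6 were lower and 0 higher in NZO/HlLtJ than in C57BL/6J (median -0.13). Among all genes 28.7% were lower and 30.4% higher. In CAST/EiJ 3 were higher and 4 lower than in C57BL/6J (median -0.03), beside 32.7% higher and 34.1% lower among all genes. Pmis2, a sperm surface gene, averaged 51.5 ± 2.18 CPM in NZO/HlLtJ, 84.0 ± 1.80 CPM in CAST/EiJ and 49.9 ± 3.90 CPM in C57BL/6J, with 0.75 (SE 0.04, adjusted p = 2.28e-15) in CAST/EiJ against C57BL/6J. Pdilt, a testis disulfide isomerase, was higher by 0.34 (SE 0.05, adjusted p = 2.29e-07) in CAST/EiJ in comparison with C57BL/6J and lower, at -0.25 (SE 0.04, adjusted p = 2.60e-05), in NZO/HlLtJ. Tex101, a germ cell surface gene, was lower in CAST/EiJ at -0.23 (SE 0.04, adjusted p = 1.86e-06), as was the related Lypd4 at -0.17 (SE 0.03, adjusted p = 5.48e-06). Prss37, a protease-like gene, was the lowest of this list in NZO/HlLtJ, at -0.27 (SE 0.04, adjusted p = 3.31e-06) against C57BL/6J. Of 4 tested genes for the egg side, which testis is not known for, 2 were higher and 0 lower in NZO/HlLtJ than in C57BL/6J, beside 30.4% higher among all genes. The 2 higher ones were the tetraspanin genes Cd81 at 0.74 (SE 0.06, adjusted p = 1.67e-11) and Cd9 at 0.44 (SE 0.08, adjusted p = 3.10e-05), which many somatic cells also express.

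**Figure D5:**
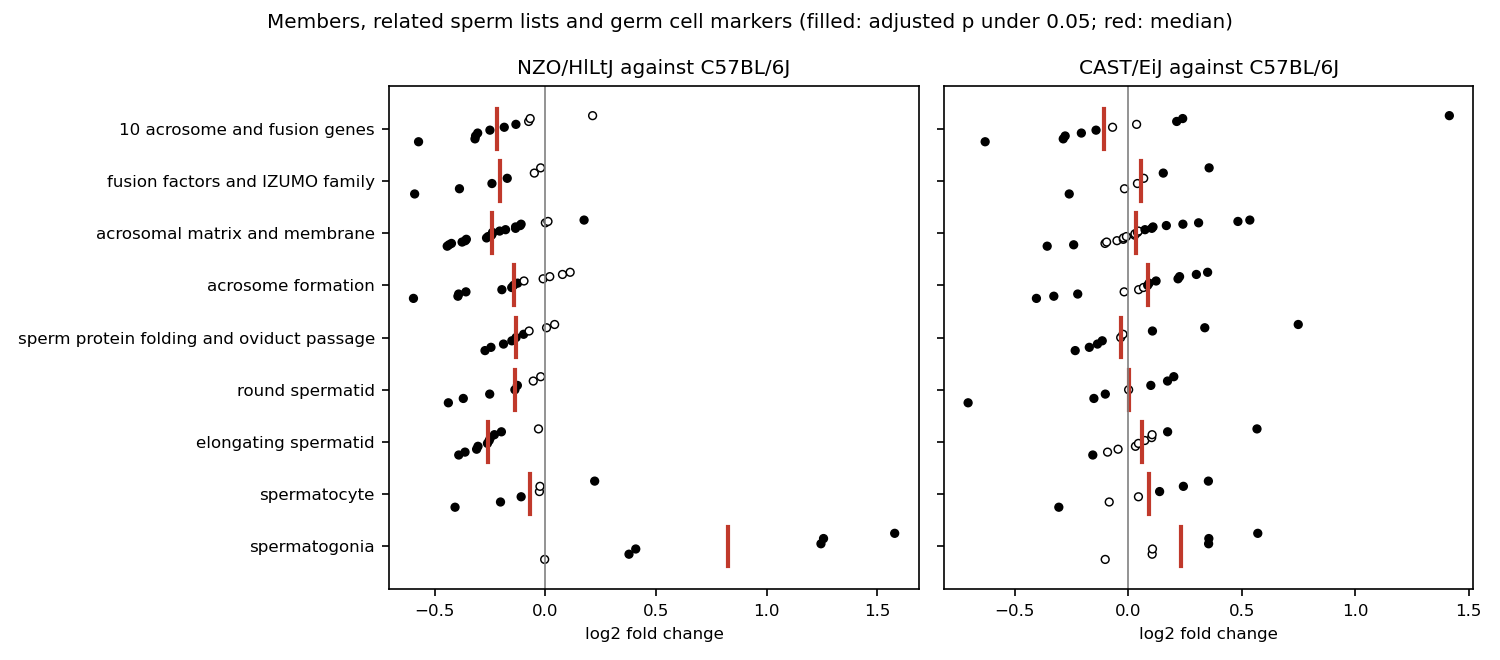
Log2 fold change of each gene in NZO/HlLtJ against C57BL/6J (left) and CAST/EiJ against C57BL/6J (right), for the 10 acrosome and fusion genes, 4 lists of sperm genes and 4 lists of germ cell markers; filled points passed the adjusted p threshold, red bars are medians and each panel has its own scale. In NZO/HlLtJ the medians of the sperm lists lie between -0.24 and -0.13 and that of the spermatogonia markers at 0.83, while in CAST/EiJ the sperm lists lie between -0.03 and 0.09.

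Markers of the haploid germ cells that read these genes were mostly lower in NZO/HlLtJ than in C57BL/6J, and mixed in CAST/EiJ. Among these, 5 of 7 round spermatid markers (median -0.14) and 9 of 10 elongating spermatid markers (median -0.26) were lower in NZO/HlLtJ than in C57BL/6J, with none higher. In that comparison 28.7% of all genes were lower and 30.4% higher. Of 6 spermatocyte markers 3 were lower and 1 was higher there (median -0.07). The summed round spermatid markers were 1475 to 1679 CPM in NZO/HlLtJ, 1688 to 1885 CPM in CAST/EiJ and 1578 to 1806 CPM in C57BL/6J. The summed elongating spermatid markers were 10685 to 14053 CPM in NZO/HlLtJ, 14448 to 16089 CPM in CAST/EiJ and 13220 to 15481 CPM in C57BL/6J. On the other side, 5 of 6 spermatogonia markers (median 0.83), 6 of 7 Sertoli cell markers (median 0.37) and 4 of 6 Leydig cell markers (median 0.61) were higher in NZO/HlLtJ than in C57BL/6J. Of the other Leydig cell markers, Cyp11a1, the first enzyme of steroid synthesis, was lower at -0.50 (SE 0.12, edgeR adjusted p = 0.000518), and Star was at -0.32 without a call. The summed Leydig cell markers were 1049 to 1536 CPM in NZO/HlLtJ, 467 to 654 CPM in CAST/EiJ and 526 to 782 CPM in C57BL/6J. In that sum Hsd3b1 averaged 317 CPM in NZO/HlLtJ, 67.6 CPM in CAST/EiJ and 59.2 CPM in C57BL/6J, and Cyp17a1 averaged 525 CPM in NZO/HlLtJ, 166 CPM in CAST/EiJ and 286 CPM in C57BL/6J. None of the markers of these lists was at 0 in any library. The part of cell make-up in these marker levels and in the values of the 10 genes was not tested. In CAST/EiJ against C57BL/6J 3 of 7 round spermatid markers were higher and 3 lower (median 0.00), and 2 of 10 elongating spermatid markers were higher and 1 lower (median 0.06). Of 6 spermatocyte markers 3 were higher and 1 lower (median 0.09), and of 6 spermatogonia markers 3 were higher and 0 lower (median 0.23). Of all genes 32.7% were higher and 34.1% lower in that comparison.

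Within groups the spread of the 10 genes lay on both sides of that of the median gene, and most pairs of them had a correlation above 0. The SD of log2 CPM within groups was 0.051 for Acrbp, at percentile 6.23 of 10097 genes with at least 10 CPM, and 0.227 for Tmem95, at percentile 98.4 of those genes, which Tmem95 itself does not reach in level. The median of those genes was 0.091. Above it were also Dcst2 (0.113, percentile 71.8), Spaca6 (0.109, percentile 67.6) and Izumo1 (0.096, percentile 55.5), and the other 5 members lay between 0.065 (Zpbp2, percentile 18.9) and 0.088 (Dcst1, percentile 45.6). After the group means were taken out, the Pearson r of 2 members over 23 libraries had a median of 0.271 over 45 pairs and a range from -0.122 to 0.837, with 44 pairs above 0. The highest was that of Dcst1 and Dcst2, and the lowest that of Dcst1 and Zpbp2. Depth and the scaling of a library are shared by all its genes, so these values are descriptions. The share above 0 among pairs of other genes was not computed. Genes whose deviations were most like the members' mean were Cfap157 (r = 0.916), Slc22a14 (0.879), Spata2l (0.861), Stpg1 (0.851) and Tmem81 (0.841), out of 14237 genes compared.

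Over all 23 libraries, strain included, the gene with the pattern most like each member was Kif2b for Izumo1 (r = 0.973), Mapk8ip3 for Spaca6 (0.730) and Slc7a7 for Tmem95 (0.956). It was Ftmt for Dcst1 (0.932), Catsper1 for Dcst2 (0.965), March5 for Acr (0.849) and Fsip1 for Acrbp (0.948). It was Ankef1 for Zpbp (0.933), Srp54b for Zpbp2 (0.987) and Chgb for Spaca7 (0.961). Each r was the highest of 14237 genes, and the libraries fall into 3 strains, so the values describe likeness of strain pattern and carry no test.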

How the data were processed

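RNA of 23 testis samples of male mice was sequenced as polyA libraries of 100 bp pairs with a target of 30 M read pairs, per the labels. The deposited table holds estimated counts per gene as the authors left them, with 23.37% of values not whole (tolerance 1e-09) and every gene above 0 in at least 12 libraries. A second table by the authors holds log2 values from a variance-stabilising transformation, between 7.67 and 19.29. Per the submitters' processing notes the build was GRCm38 and DESeq2 was used. Not given in the sources used here are the aligner, the counting tool, its use of strand and how variants of the strains were treated. The table lists 0 spike-in rows.

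Estimated counts were rounded, and 22873 genes passed filterByExpr by the 6 groups. Tests were edgeR 4.0.16 quasi-likelihood F tests (R 4.3.3), fitted with TMM scaling and 1 mean per group over all 23 libraries, with Benjamini-Hochberg adjustment over all genes and a threshold of 0.05. Strain differences were averaged over diets. Log2 CPM used a prior count of 2. Gene overlaps and lengths came from GENCODE M21, found for 99.27% of genes, and promoters from RefSeq. The fit was tested on simulated counts first. Alternatives were DESeq2 1.42.0, its size factors in edgeR, limma 3.58.1 on the authors' log2 values, no filter, a run of sample ID numbers as covariate, each diet alone, and each library left out. Library sets left out for epididymis markers or principal components were chosen after seeing the data. Pairs of libraries within a group all differed beyond counting noise (chi-square per degree of freedom 3.47 to 19.2 over 33 pairs).

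The members and gene lists were chosen with earlier results of these data known. Named were all members, up to 2 genes per list, direction and strain comparison with the largest change at a mean of at least 1 CPM, the gene most like each member, and the 5 most like their mean; a few of the list genes are not described. Neighbouring and overlapping genes were named after their values were seen.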

Additional observations from a re-analysis of the deposited data

Results flagged for a closer look

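In 50 groups of 4 libraries, values were examined for a library far from the other 3 (its gap to the nearest library, as a share of the group's range, above Dixon's 95% critical value), which chance gives in about 1 group in 20. There were 2 such values. Tmem95 had 3.13 CPM in C57BL/6J on 44% fat replicate 3, against 2.03 to 2.13 CPM in the other 3 libraries of that group, a gap of 0.905 of the range. Without that library, the Tmem95 difference between NZO/HlLtJ and C57BL/6J passed the edgeR threshold, as given with the gene above. Zpbp2 had 210.2 CPM in NZO/HlLtJ on 44% fat replicate 3, against 223 to 225 CPM in the other 3, a gap of 0.889 of the range. That library is among those that stood apart on the later principal components, and the Zpbp2 calls between strains were unchanged without it.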

How the results depend on the processing

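The number of members called stayed within 1.5 times its main value under every alternative run: 6 to 8 of 10 in NZO/HlLtJ against C57BL/6J, 8 in CAST/EiJ against C57BL/6J, 6 to 7 in NZO/HlLtJ against CAST/EiJ and 0 in each diet comparison. Spaca6 in NZO/HlLtJ against CAST/EiJ, 0.00 with edgeR, changed sign and was never called: -0.0279 with DESeq2 size factors, -0.0280 with DESeq2, -0.0211 with limma on the authors' values, -0.0736 in the 10% fat groups alone, -0.00447 without the libraries apart on the later components, and -0.0247 to 0.0343 with each library left out. The other changed calls, of Acr, Tmem95, Zpbp2 and Dcst1, stand with those genes, and the cause of these changes was not tested. Counts over all genes moved more: diet in NZO/HlLtJ gave 1 call with edgeR, 7 with DESeq2, 0 with limma, 2 without the filter, 0 with the ID covariate, 2 and 4 without the added library sets, and 0 to 5 with each library left out. Diet in CAST/EiJ gave 0 with edgeR, 3 with DESeq2 and 1 with limma. Diet in C57BL/6J gave 2 with edgeR and 0 without either added set. The diet average gave 6 and the diet-by-strain test 8 with DESeq2 against 0 with edgeR. NZO/HlLtJ against C57BL/6J gave 8826 called genes on 10% fat alone and 13520 with edgeR. Groups of 3 or 4 libraries limit what a diet difference can show, most for Tmem95 with its low counts. No paired analysis was possible because the labels carry no replicate numbers, and those used here follow accession order.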
